A study of Mus musculus with 24 samples.

Results

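The genes described here encode the T cell receptor complex and proteins that sit beside it on the T cell surface. They are Cd3d, Cd3e, Cd3g, Cd247, Trac, Trbc2, Cd4, Cd5 and Cd2, taken by symbol, and all 9 were found among the 46318 gene IDs counted in each library. Bulk RNA sequencing had been done on mammary tumours of MMTV-PyMT mice, in which the polyoma virus middle T oncogene is driven by the mouse mammary tumour virus promoter, active mainly in mammary epithelium. Of the 24 libraries, 12 are labelled KO, from colonies described as NR0B2-/- PyMT+ and as SHP KO, and 12 are labelled WT, from NR0B2+/+ PyMT+ colonies. NR0B2, also called SHP, is an orphan nuclear receptor that represses the activity of other nuclear receptors. All tumours were taken at a volume of 2000 mm3. The labels give neither the age of the mice nor the deleted part of Nr0b2. They do not say that each library came from its own animal. The p-values therefore measure the spread between these libraries, which may not be that between animals.

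The targeted gene went against its label. Nr0b2 had 182 reads over the libraries labelled KO, with 3 to 71 in each of the 12, and 1 read over the libraries labelled WT, of which 11 of 12 were at 0. KO and WT below therefore mean libraries so labelled, and every direction rests on those labels. Depth ran from 18789250 to 38022182 counts a library, at which 3 reads correspond to 0.0761 to 0.193 CPM (counts scaled to library size, with TMM factors). Epithelial keratins and Epcam and the other epithelial markers summed to 3684 CPM or more in every library, so the labelled epithelial tumour tissue has its markers.

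The T cell receptor of most T cells pairs an alpha with a beta chain, which bind antigen held in MHC molecules but carry no signal themselves. Signal passes through the CD3 gamma, delta and epsilon chains and the zeta chain, whose cytoplasmic tyrosine motifs are phosphorylated by LCK and then bind ZAP70. CD4 is the coreceptor of helper and regulatory T cells, CD5 dampens receptor signalling, and CD2 is an adhesion and costimulatory receptor. Mouse CD4 is also found on some dendritic cells, CD5 on a subset of B cells, and CD2 on B and NK cells. In a mammary tumour these transcripts can come from infiltrating or adjoining lymphocytes or, for Cd4, also from dendritic cells. In bulk RNA fewer T cells and less receptor RNA per cell cannot be told apart.

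The receptor genes were expressed at low levels in all tumours, and the libraries KO 10 and KO 11 stood apart from the other 22. All 9 genes had their 2 highest values in KO 10 and KO 11. Of all 15821 genes tested, 320 had that pattern (2.02%). Between them KO 10 and KO 11 held from 52.0% (Cd4) to 68.9% (Trac) of the CPM summed over the 12 KO libraries. The other ten KO libraries overlapped the WT libraries for each of the 9 genes, and the KO median lay below the WT median for 5 of them (Cd3e, Cd3g, Cd247, Trac and Trbc2), against 48.5% of all genes tested. The comparisons of these genes are therefore given with and without KO 10 and KO 11. Leaving out the 2 highest libraries, both KO, had to lower each change. The values without them therefore describe the other libraries and do not test the groups.

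**Figure D1:**
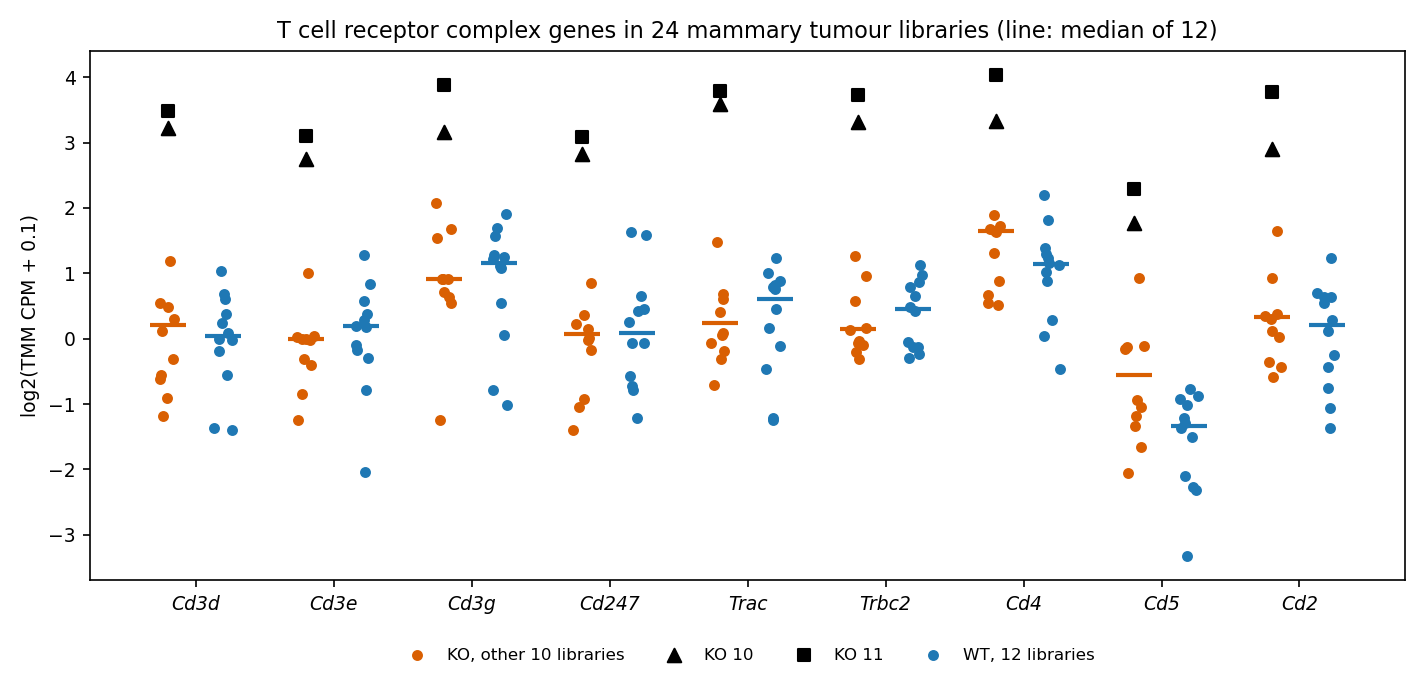
Level of each gene in each library, as log2 of TMM CPM plus 0.1, with orange points for the other ten KO libraries, blue points for the 12 WT libraries, a triangle for KO 10 and a square for KO 11; lines are medians of 12 libraries. KO 10 and KO 11 sit above every other library for all 9 genes, and the remaining KO and WT points overlap.

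The CD3 chains are encoded side by side on chromosome 9 of GRCm39. Cd3g spans 44880870 to 44891729 on the minus strand, Cd3d 44893067 to 44898350 on the plus strand and Cd3e 44910033 to 44920961 on the minus strand. Because the 3 genes share this locus, the stretches just upstream of their starts are shown, with that of Cd5 for contrast. They are from the RefSeq promoter table on build GRCm38.p6. It holds no entry for Trac, Trbc2, Cd4 or Cd2, and its entry for Cd247 is not printed. Each stretch runs 5′ to 3′ on the gene's own strand and stops before the first annotated start. Capitals mark matches, on either strand, to GGAAG (the ETS core), CTTTGA (TCF/LEF) or AGATAA, the form bound by GATA factors.
Cd3g, chr9:44980432-44980681, minus strand: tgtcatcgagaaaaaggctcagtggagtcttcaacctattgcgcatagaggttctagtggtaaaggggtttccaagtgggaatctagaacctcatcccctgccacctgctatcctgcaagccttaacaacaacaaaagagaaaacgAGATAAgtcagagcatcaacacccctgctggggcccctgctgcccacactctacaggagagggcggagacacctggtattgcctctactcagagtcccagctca
Cd3d, chr9:44981536-44981768, plus strand: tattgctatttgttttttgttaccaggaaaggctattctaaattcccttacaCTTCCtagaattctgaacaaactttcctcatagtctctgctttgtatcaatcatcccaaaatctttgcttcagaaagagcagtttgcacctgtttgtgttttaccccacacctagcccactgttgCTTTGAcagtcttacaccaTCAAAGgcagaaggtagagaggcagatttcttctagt
Cd3e, chr9:45009664-45009861, minus strand: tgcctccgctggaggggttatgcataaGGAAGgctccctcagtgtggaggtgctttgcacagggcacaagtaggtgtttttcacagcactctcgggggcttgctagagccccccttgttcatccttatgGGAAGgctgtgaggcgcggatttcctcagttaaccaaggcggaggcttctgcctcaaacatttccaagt
Cd5, chr19:10739027-10739224, minus strand: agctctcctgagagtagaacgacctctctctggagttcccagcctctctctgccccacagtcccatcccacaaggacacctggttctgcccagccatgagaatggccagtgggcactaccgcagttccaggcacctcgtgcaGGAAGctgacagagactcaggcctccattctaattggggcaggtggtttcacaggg
Motifs were counted over the whole 250 bases before the table's own start, which for Cd3d, Cd3e and Cd5 reach 17, 52 and 52 bases past the first annotated start and for Cd247 lie inside the annotated gene. In these windows GGAAG occurred 3 times for Cd3e, 2 times for Cd3d, 2 times for Cd5, 1 time for Cd247 and 0 times for Cd3g. For Cd3e, Cd3d and Cd5, 1 match each lies in the bases past the first annotated start and is not printed. These letters are held by 64.1% of 32851 promoters. CTTTGA occurred 2 times for Cd3d and for none of the other 4 genes, against 13.8% of promoters. AGATAA occurred 1 time for Cd3g and for none of the other 4, against 10% of promoters. The RUNX letters TGTGGT, found in 14% of promoters, and the letters TATAAA, found in 12.4%, matched in 0 of these 5 windows. A match describes letters and does not show a bound site.

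Cd3e, the chain that pairs with both CD3 gamma and CD3 delta, had 0.322 CPM in its lowest KO library, a KO median of 0.896, 6.60 in KO 10 and 8.45 in KO 11. In WT it ran from 0.144 in WT 23 through a median of 1.04 to 2.33 in WT 16. The groups overlapped, and 3 of 12 KO libraries exceeded the WT median. The log2 change (KO minus WT) was 0.90 ± 0.50 (SE, 12 against 12 libraries, edgeR adjusted p = 0.323), and -0.30 ± 0.33 without KO 10 and KO 11 (edgeR adjusted p = 0.668).

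Cd3d ran from 0.342 to 11.1 CPM in KO, with a median of 1.06 and 9.23 in KO 10, and from 0.279 to 1.94 in WT, with a median of 0.930. Its highest values outside KO 10 and KO 11 were 2.17 in KO 4 and 1.94 in WT 13. The log2 change was 1.34 ± 0.54 (SE, edgeR adjusted p = 0.197) with all 24 libraries and -0.03 ± 0.34 without KO 10 and KO 11. Cd3g had a KO median of 1.78 CPM, 8.87 in KO 10 and 14.6 in KO 11, against 0.395 to 3.64 in WT with a median of 2.14. The KO range, from 0.322 in KO 12, covered the whole WT range. Its log2 change was 0.88 ± 0.46 (SE, edgeR adjusted p = 0.298), and 0.03 ± 0.36 without KO 10 and KO 11.

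Cd247 encodes the zeta chain and lies on chromosome 1 (165607514 to 165698722, plus strand). It had 0.282 CPM in the lowest KO library, a KO median of 0.956, 7.001 in KO 10 and 8.39 in KO 11, against 0.332 to 3.01 in WT with a median of 0.974. WT 14, at 3.01, was the highest WT library, and in WT 21 the Cd247 to Cd3e ratio of CPM reached 4.06 against a median of 1.05 over 24 libraries. Of its 6969 exon bases, 2918 (41.9%) overlap Pou2f1 on the opposite strand. Pou2f1, a widely expressed transcription factor gene, averaged 26.4 CPM in KO and 28.5 in WT. It was at 25.6 CPM in WT 14 and 28.2 in WT 21, within its range of 15.2 to 31.8 over all libraries. The recorded counting used no strand option and left out reads on the shared bases for both genes. The Cd247 level is therefore uncertain and may be too low. The Cd247 log2 change was 0.73 ± 0.52 (SE, edgeR adjusted p = 0.440) and -0.48 ± 0.37 without KO 10 and KO 11.

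Trac and Trbc2 encode the constant parts of the alpha and beta chains. Trac (chromosome 14, 54457978 to 54461655, plus strand) had a KO minimum of 0.515 CPM, a KO median of 1.09, 11.9 in KO 10 and 13.7 in KO 11, against 0.323 to 2.25 in WT with a median of 1.43. Trbc2 (chromosome 6, 41523664 to 41525115, plus strand) ran from 0.704 to 13.1 CPM in KO, with a median of 1.01 and 9.85 in KO 10, and from 0.713 to 2.08 in WT, with a median of 1.27. For both genes the KO median was below the WT median while the KO mean was above the WT mean, 3.10 ± 4.59 against 1.27 ± 0.635 CPM for Trac and 2.88 ± 4.11 against 1.27 ± 0.482 CPM for Trbc2 (SD, n = 12 each). The log2 changes were 1.30 ± 0.54 for Trac (SE, edgeR adjusted p = 0.209) and 1.18 ± 0.48 for Trbc2 (SE, edgeR adjusted p = 0.201). Without KO 10 and KO 11 they were -0.12 ± 0.33 and -0.12 ± 0.25.

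Trbc1, the near-identical copy of Trbc2 and not a member, had 7.54 and 11.1 CPM in KO 10 and KO 11 and 0.228 to 1.72 in WT. Multiply placed reads were left out of the counts, per the command in the file headers, so the split between Trbc1 and Trbc2 is uncertain. Their log2 ratio averaged -0.61 ± 0.43 in KO and -0.90 ± 0.52 in WT (SD, n = 12 each), a difference of 0.29 ± 0.20 (SE, two-sided permutation test with 100000 resamples, adjusted p = 0.199 over 4 ratios), and 0.23 ± 0.21 without KO 10 and KO 11. Trdc, the delta constant gene of gamma delta T cells, had 0.892 CPM in KO 10 and 1.89 in KO 11, against 0.0644 to 1.16 in the other 22 libraries. The mean of KO 10 and KO 11 stood at 3.29 times the median of the other 22 for Trdc, and at 11.4 times for Trac and for Trbc2; that difference was not tested.

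The variable segments joined to these constant genes were also counted. Over 178 V segments, KO 10 had 188 reads and KO 11 had 394, against 8 to 167 with a median of 43.5 in the other 22 libraries. Beta segments took 142 reads in KO 10 and 312 in KO 11. At least 3 reads fell in 22 segments in KO 10 and in 27 in KO 11, against 0 to 15 segments elsewhere. The most abundant segment of both was Trbv13-2, with 9.57% of the V reads of KO 10 and 12.9% of those of KO 11. The segment with the most reads in the series was Trdv4, a delta segment, with 355 reads in 23 libraries, 98 of them in WT 13 (58.7% of its 167 V reads). Trgv2, a gamma segment, had 95 reads in 21 libraries. Segment counts rise with the number of reads, reads that span the V and constant genes were not counted for either by the recorded command, and no clone can be read from these totals.

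**Figure D2:**
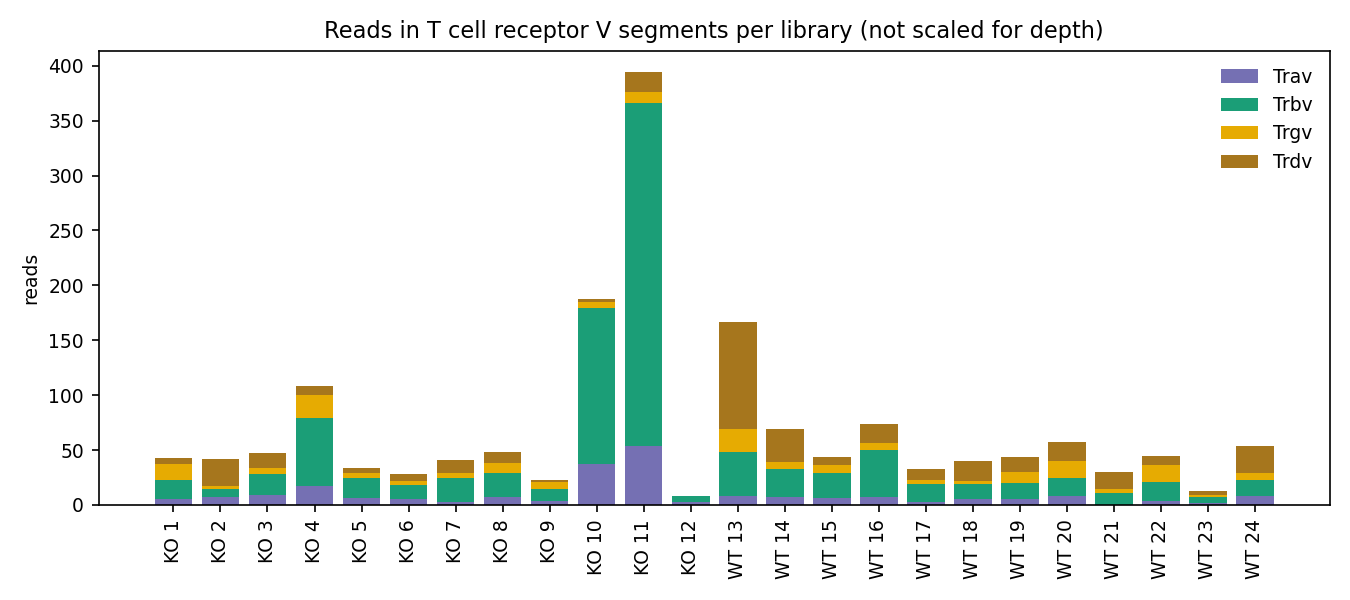
Reads in alpha (Trav), beta (Trbv), gamma (Trgv) and delta (Trdv) V segments, stacked, for each of the 24 libraries, not scaled for depth. KO 11 and KO 10 have the tallest bars, 394 and 188 reads, mostly beta; WT 13 follows with 167, of which 98 are Trdv4.

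Cd4 (chromosome 6, 124841656 to 124865210, minus strand) had the highest CPM of the 9 genes by mean in both groups. It ran from 1.33 to 16.3 CPM in KO, with a median of 3.02 and 9.94 in KO 10, and from 0.626 to 4.51 in WT, with a median of 2.11. WT 17 held the highest WT value, 4.51, beside a Cd3e level of 0.787. In KO, 8 of 12 libraries exceeded the WT median. The log2 change was 0.98 ± 0.40 (SE, edgeR adjusted p = 0.202) and 0.18 ± 0.28 without KO 10 and KO 11. The log2 ratio of Cd4 to Cd8a, the coreceptor of cytotoxic T cells, was 0.80 ± 0.66 in KO and 0.18 ± 1.12 in WT (SD, n = 12 each), a difference of 0.63 ± 0.38 (SE, permutation test, adjusted p = 0.199), and 0.78 ± 0.38 without KO 10 and KO 11 (permutation test, adjusted p = 0.269). KO 10 and KO 11 had ratios of 0.18 and -0.08, at the low end of the KO range.

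Cd5 (chromosome 19, 10695471 to 10716390, minus strand) had the largest log2 change of the 9 genes and the lowest level, and did not pass the filter on low counts until it was added to the fit. Its KO libraries ran from 0.141 to 4.78 CPM with a median of 0.608, and included 3.30 in KO 10, 4.78 in KO 11 and 1.80 in KO 12. Its WT libraries ran from 0, in WT 21, to 0.487 with a median of 0.298. The groups overlapped, but 10 of 12 KO libraries exceeded the WT median and 6 of 12 the highest WT library. The log2 change was 2.09 ± 0.54 (SE, edgeR p = 0.000698, adjusted p = 0.0869), which missed the threshold of 0.05. DESeq2 gave 2.11 with an adjusted p of 0.0138, which passed it. Without KO 10 and KO 11 the change was 1.11 ± 0.43 (95% interval 0.22 to 1.99, edgeR p = 0.0163, adjusted p = 0.250). KO 12 had a Cd5 to Cd3e ratio of 5.60, from 28 and 5 reads, against 0.929 in the next library (KO 1) and a median of 0.359.

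Cd2 (chromosome 3, 101183224 to 101195255, minus strand) ran from 0.563 to 13.5 CPM in KO, with a median of 1.15 and 7.40 in KO 10, and from 0.287 to 2.25 in WT, with a median of 1.05. Apart from KO 10 and KO 11, KO 4 was highest at 3.02. The log2 change was 1.39 ± 0.51 (SE, edgeR adjusted p = 0.170) and 0.20 ± 0.33 without KO 10 and KO 11.

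Read together, 0 of the 9 genes passed an adjusted p of 0.05 in the edgeR test of KO against WT, in which 50 of 15821 genes did (0.316%). At an unadjusted edgeR p under 0.05, 6 of 9 were higher in KO (Cd3d, Trac, Trbc2, Cd4, Cd5 and Cd2), against 10% of all genes tested. All 9 changes were positive, with a median of 1.18, against 51.3% positive and a median of 0.01 over all genes tested. KO 10 and KO 11 were the 2 highest libraries for all 9 genes, against 2.02% of all genes tested. Leaving them out therefore had to lower these 9 changes, which was not so for most other genes. Without KO 10 and KO 11, 0 of 9 passed, against 9 of 15999 genes (0.0563%). The genes higher at an unadjusted p then numbered 1 of 9 (Cd5), against 8.26% of all genes. Then 4 of 9 changes were positive, against 49.6%, and their median was -0.03. DESeq2 called 1 of 9 (Cd5), against 2.65% of all genes. Its default settings replaced the KO 11 count of Cd3e, Trac, Trbc2 and Cd2 as outlying, and its unadjusted p was under 0.05 for 4 of 9, against 9.93% of all genes higher in KO.

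**Figure D3:**
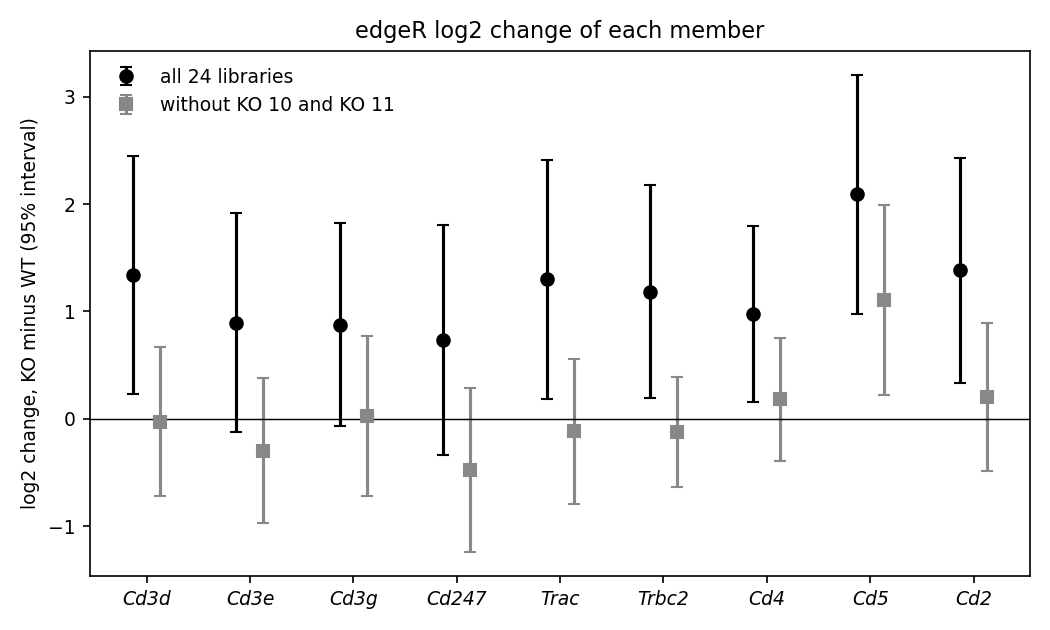
Log2 change of each gene from edgeR, KO minus WT, with 95% intervals, for all 24 libraries (black circles) and without KO 10 and KO 11 (grey squares). All black circles lie above 0, from 0.73 (Cd247) to 2.09 (Cd5); the grey squares lie near 0 or below it except that of Cd5, at 1.11.

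The authors' deposited table, made from the same counts, lists 6 of the 9 genes. It gives log2 changes of 1.39 for Cd2, 1.35 for Cd3d, 1.31 for Trac, 1.19 for Trbc2, 0.98 for Cd4 and 0.88 for Cd3g, with adjusted p-values from 0.173 (Cd2) to 0.297 (Cd3g) in the authors' deposited table.

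Levels among the genes were compared per kilobase of exon. In WT the order of median CPM per kilobase was Trbc2 (2.44), Cd3g (2.09), Trac (1.55), Cd2 (0.922), Cd3e (0.686), Cd3d (0.615), Cd4 (0.609), Cd247 (0.140) and Cd5 (0.138). Trac lay above Cd2 in 12 of 12 WT libraries. Cd3e over Cd3d, Cd3d over Cd4 and Cd247 over Cd5 each held in 7 of 12, so the order of those neighbours was not separated. In KO the median CPM per kilobase was again highest for Trbc2 (1.95), Cd3g (1.74), Trac (1.18) and Cd2 (1.01). Cd5 (0.282) then stood above Cd247 (0.137) in 11 of 12 KO libraries, and Cd4 (0.871) above Cd3d (0.702) in 8 of 12. Cd247 was divided by all its 6969 exon bases, although 2918 of them overlap Pou2f1. Its level per kilobase may therefore be too low, and its place beside Cd5 is uncertain in both groups.

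Among the libraries, the genes varied together to different degrees. Over the 12 WT libraries, log2 CPM of Cd3e went with that of Cd3g (Pearson r = 0.909, permutation adjusted p = 8.7e-05; Spearman rho = 0.909, adjusted p = 0.00117), Cd2 (r = 0.890, adjusted p = 8.7e-05; rho = 0.916, adjusted p = 0.00117), Trac (r = 0.864, adjusted p = 0.000303; rho = 0.888, adjusted p = 0.00136) and Cd3d (r = 0.851, adjusted p = 0.0012; rho = 0.790, adjusted p = 0.0104). Without WT 16 and WT 23, farthest from the median of Cd3e, these r were 0.914, 0.834, 0.813 and 0.841. For Cd4 (r = 0.338, permutation adjusted p = 0.302; rho = 0.238, adjusted p = 0.475) and Cd247 (r = 0.384, permutation adjusted p = 0.253; rho = 0.427, adjusted p = 0.192) no relation to Cd3e was detected in WT. Cd5 (r = 0.535, permutation adjusted p = 0.104; rho = 0.636, adjusted p = 0.0453) and Trbc2 (r = 0.386, permutation adjusted p = 0.253; rho = 0.643, adjusted p = 0.0453) passed by rank but not by Pearson's r. KO 10 and KO 11 form a cluster of their own, so the KO relation was taken over the other ten libraries. There Cd3e went with Trac (r = 0.897, permutation adjusted p = 0.0124; rho = 0.830, adjusted p = 0.0379) and Cd2 (r = 0.825, permutation adjusted p = 0.0205; rho = 0.794, adjusted p = 0.0459). Cd3g passed by Pearson's r and not by rank (r = 0.786, permutation adjusted p = 0.0471; rho = 0.455, adjusted p = 0.308). No relation was detected there for Cd3d (r = 0.431, permutation adjusted p = 0.310; rho = 0.333, adjusted p = 0.474), Cd247 (r = 0.489, permutation adjusted p = 0.252; rho = 0.758, adjusted p = 0.0635), Trbc2 (r = 0.367, permutation adjusted p = 0.368; rho = 0.309, adjusted p = 0.501) or Cd4 (r = 0.673, permutation adjusted p = 0.0635; rho = 0.697, adjusted p = 0.0745). The KO value for Cd5 was r = -0.10 (permutation adjusted p = 0.881; rho = 0.236, adjusted p = 0.581). P-values are adjusted over 26 relations.

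Outside the lists used here, the genes whose log2 CPM ranked libraries most like Cd3e were, by Spearman rho over 24 libraries among 14191 genes, Stat4 (0.860), Pkib (0.850), Sh2d2a (0.839), Il2rb (0.833) and Gimap3 (0.824), followed by Ms4a4b, Tnfaip8l2, Il16, Kynu and Rasal3 (0.813 to 0.792). These correlations are descriptive. Stat4, a transcription factor downstream of interleukin 12, kept a rho of 0.818 over the 22 libraries without KO 10 and KO 11. Gimap3, a lymphocyte GTPase gene, had 26.2 and 26.6 CPM in KO 10 and KO 11 and 0.395 to 4.86 in WT.

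The rest of the receptor pathway was described by lists of its genes, in which 0 genes passed the edgeR test. Of 14 other receptor, coreceptor and costimulatory genes, 9 were tested, 0 passed the adjusted threshold (0.316% of all genes did), and 5 were higher in KO at an unadjusted edgeR p under 0.05 (10% of all genes were). Their median log2 change was 0.64, and 0.00 without KO 10 and KO 11. Cd8b1, the CD8 beta chain, had 6.64 and 12.7 CPM in KO 10 and KO 11 against 0.0359 to 1.72 in WT (log2 change 1.73 ± 0.71 SE, edgeR adjusted p = 0.204). Without KO 10 and KO 11 its change was -0.35 ± 0.45 (SE, edgeR adjusted p = 0.717). Cd8a had 8.74 and 17.3 CPM there against 0.355 to 4.66 in WT. Its log2 change was 0.64 ± 0.55 with all libraries and -0.73 ± 0.37 without KO 10 and KO 11 (SE, edgeR adjusted p = 0.529 and 0.340).

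Of 26 proximal signalling genes 20 were tested and 0 passed, with a median log2 change of 0.19, and -0.11 without KO 10 and KO 11. At an unadjusted p, 4 were higher in KO, against 10% of all genes. KO 10 and KO 11 were the 2 highest libraries for 18 of the 26, tested or not, beside 2.02% of all genes tested. Lat, the adaptor phosphorylated by ZAP70, had 9.14 and 10.6 CPM in them against 0.134 to 1.36 in WT (log2 change 1.51 ± 0.60 SE, edgeR adjusted p = 0.194). Without KO 10 and KO 11 its change was -0.17 ± 0.36 (SE, edgeR adjusted p = 0.839). The most abundant genes of the list, Cd2ap, Grb2 and Nck1, are expressed in many cell types and had log2 changes from -0.14 to 0.04.

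Of 14 distal signalling genes, all tested, 0 passed, and the median log2 change was 0.03, and -0.08 without KO 10 and KO 11. Orai1, the pore of the calcium channel opened after receptor signalling and present in many cell types, was 50.7 ± 16.9 CPM in KO and 35.3 ± 7.89 in WT (SD, n = 12 each; log2 change 0.52 ± 0.16 SE, edgeR adjusted p = 0.118), with 0.52 ± 0.17 without KO 10 and KO 11. With adipocyte and muscle scores as covariates Orai1 passed, at 0.66 ± 0.15 (SE, edgeR adjusted p = 0.0447), in a fit that called 122 of 15821 genes. It did not pass in DESeq2 (adjusted p = 0.0522). Dgkz, a diacylglycerol kinase that limits receptor signalling, was 124.5 ± 28.4 CPM in KO and 162.2 ± 27.7 in WT, a log2 change of -0.38 ± 0.12 (SE, edgeR adjusted p = 0.136), and -0.34 ± 0.13 without KO 10 and KO 11. Among 13 lineage factors 12 were tested, 0 passed and the median log2 change was 0.07, and -0.13 without KO 10 and KO 11. Gata3, also a luminal epithelial factor, was their most abundant gene by mean in both groups. Among 9 homing and memory genes 0 passed in edgeR and 3 were higher at an unadjusted p (10% of all genes were), with a median log2 change of 0.44, and -0.02 without KO 10 and KO 11. DESeq2, which called 2.65% of all genes, called 2 of the 9, among them Il7r, the interleukin 7 receptor (adjusted p = 0.0440). Ccr7, a chemokine receptor for lymph node entry, had 10.5 and 15.8 CPM in KO 10 and KO 11.

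Among markers of other cells, those of B cells were also highest in KO 10 and KO 11. All 10 of 10 B cell markers, tested or not, had their 2 highest values there. The share was 2.02% of all genes tested, which leaves out genes that failed the filter on low counts. Their summed level was 142.6 CPM in KO 10 and 294.2 in KO 11, against 3.24 to 9.56 in the other ten KO libraries and 1.94 to 48.4 in WT. The highest WT library was WT 24, whose Cd3e level was 1.20 CPM. Of the 10, 4 were tested and 0 passed, with a median log2 change of 1.88, and -0.32 without KO 10 and KO 11. Ms4a1, which encodes CD20, was at 20.4 and 50.9 CPM in KO 10 and KO 11 and at or below 7.79 in the other 22 libraries. A score of the 4 tested B cell markers was also used as covariate in edgeR. With it the log2 changes of 6 of the 9 receptor genes turned negative, from -0.07 (Cd3g) to -0.57 (Cd247). That of Cd5 was 1.05 (edgeR adjusted p = 0.263). KO 10 and KO 11 had the highest levels of these markers, so this fit cannot separate B cells from those 2 libraries. With adipocyte and muscle scores as covariates all 9 changes stayed positive but shrank, to 0.01 (Cd247), 0.04 (Cd3e), 0.10 (Cd3g), 0.35 (Cd3d) and 1.61 (Cd5), with 0 of 9 passing. KO 11 had the highest sums of both marker lists, so that fit cannot separate those cells from KO 11. The part of B cells in the result was not tested.

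The lymph node stroma list, 7 genes of which 2 were tested, summed to 32.0 CPM in KO 10 and 91.7 in KO 11, against 1.08 to 20.5 in the other KO libraries and 1.11 to 202.6 in WT. The WT maximum was WT 17, where Tnfsf11 alone reached 198.1 CPM. Ccl21a, a chemokine of lymph node and lymphatic vessels, had 22.6 CPM in KO 10 and 59.8 in KO 11, and 25.0 in WT 20, beside a WT 20 Cd3e level of 0.834. Cxcl13, the B cell follicle chemokine, had 7.31 CPM in KO 10 and 26.0 in KO 11, and 8 of 12 KO libraries exceeded the highest WT library (2.13). Its log2 change was 2.30 ± 0.54 (SE, edgeR adjusted p = 0.0556; DESeq2 called it, 2.31 with an adjusted p of 0.0016) and 1.27 ± 0.38 without KO 10 and KO 11 (edgeR adjusted p = 0.183). Nkx2-3 was at 0 in all 24 libraries. Their part in the receptor gene levels was not tested.

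For NK cell markers 0 of 8 had KO 10 and KO 11 as the 2 highest libraries, near the share of all genes tested (2.02%). Their sum was 12.8 CPM in KO 10 and 25.9 in KO 11, the second highest of 24, against 2.30 to 26.6 in WT. Their summed level went with Cd3e over the 12 WT libraries (r = 0.737, permutation adjusted p = 0.00725; rho = 0.713, adjusted p = 0.0241) and was r = 0.671 there without WT 16 and WT 23 (permutation adjusted p = 0.0779). In the other ten KO libraries r was 0.796 (permutation adjusted p = 0.0351; rho = 0.624, adjusted p = 0.110). Macrophage markers summed to 1801 and 2218 CPM in KO 10 and KO 11, against 809.4 to 2105 in the other KO libraries and 543.6 to 1554 in WT. Their sum also went with Cd3e in WT (r = 0.753, permutation adjusted p = 0.00709, and rho = 0.636, adjusted p = 0.0453). Without WT 16 and WT 23 this r was 0.386 (permutation adjusted p = 0.350). In the other KO libraries it was 0.564 (permutation adjusted p = 0.156). Of 10 macrophage genes 0 passed, and the median log2 change was 0.31, and 0.19 without KO 10 and KO 11. No relation to Cd3e was detected for B cell, lymph node stroma or epithelial markers (permutation adjusted p of r 0.130 or more). Their r were 0.409, 0.211 and -0.0087 in WT, and 0.560, 0.427 and -0.638 in the other KO libraries. Dendritic cell markers, 7 of 7 tested and 0 passing, summed to 60.6 and 67.9 CPM in KO 10 and KO 11, against 34.0 to 65.1 in WT. Adipocyte and muscle markers were highest in KO 11, at 1871 and 4539 CPM, but in KO 10 they summed to 379.7 and 0.892 CPM, the latter the second lowest of 24 libraries. Epithelial markers were lowest of all 24 libraries in KO 11 (3684 CPM) and summed to 4930 in KO 10. Fibroblast markers summed to 1781 CPM in KO 10 and 3640 in KO 11, against 880.8 to 3437 in WT. The part of these cells in the result was not tested.

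**Figure D4:**
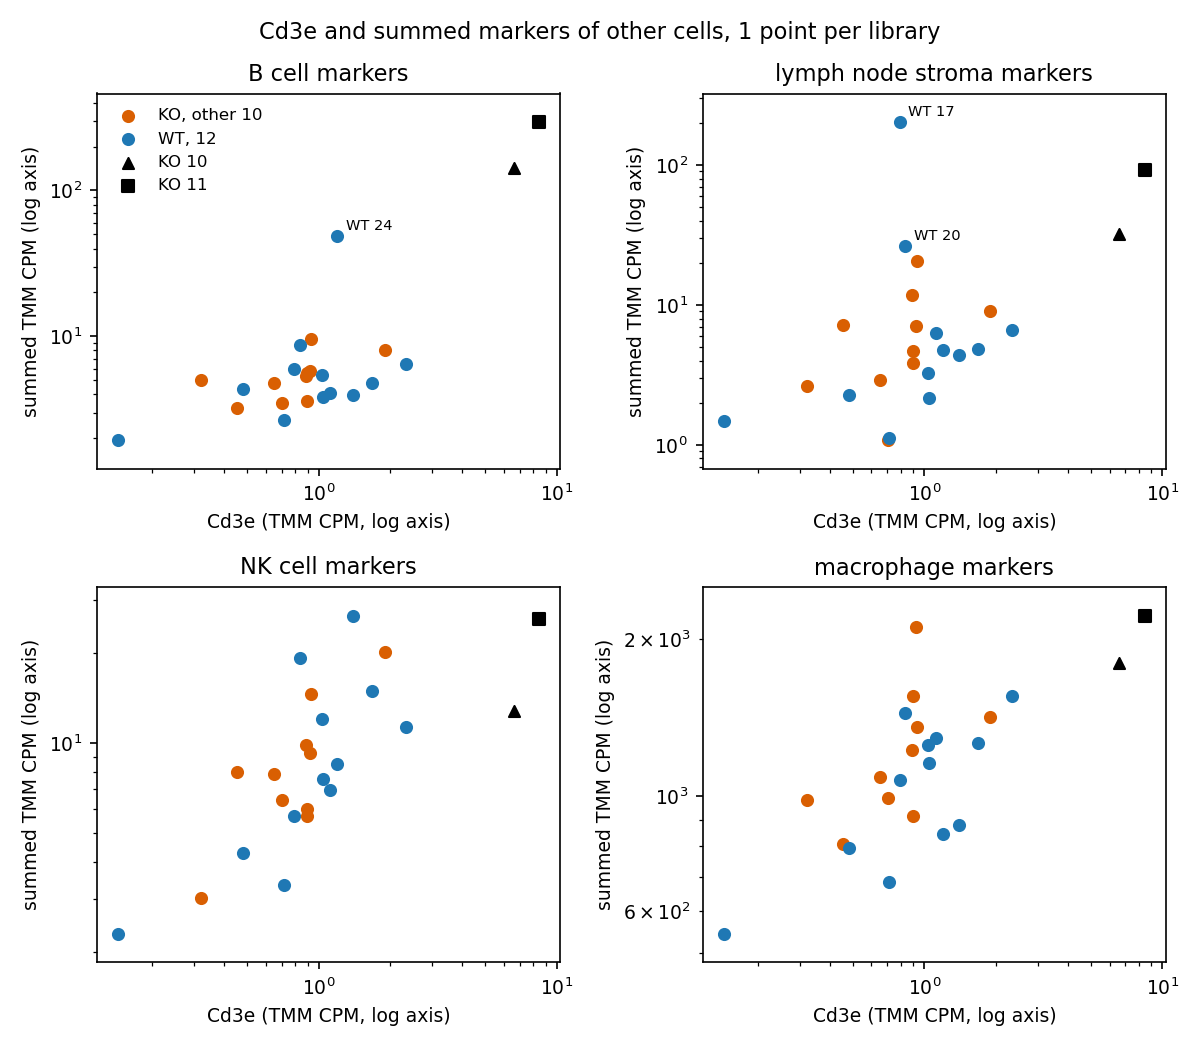
Cd3e level (TMM CPM, log axis) against the summed CPM (log axis) of B cell, lymph node stroma, NK cell and macrophage markers, 1 point per library, orange for the other ten KO libraries, blue for WT, a triangle for KO 10 and a square for KO 11. KO 10 and KO 11 lie far to the right in every panel, and also above all others for B cell markers (142.6 and 294.2 CPM), but not for NK cell markers.

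Set against all leukocytes, Cd3e gave no difference between the groups that passed the test. The log2 ratio of Cd3e to Ptprc, the pan-leukocyte gene encoding CD45, averaged -5.20 ± 0.65 in KO and -5.27 ± 0.52 in WT (SD, n = 12 each), a difference of 0.07 ± 0.24 (SE, permutation test, adjusted p = 0.773), and -0.17 without KO 10 and KO 11. The ratio was -3.84 in KO 10 and -4.19 in KO 11, above every WT library (-6.20 to -4.50).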

How the data were processed

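RNA of 24 mammary tumours, 12 libraries labelled KO and 12 WT, was sequenced with a stranded mRNA kit, per the labels' protocols. The authors deposited counts, whole reads per gene, from featureCounts 2.0.0 on a GRCm39 annotation. No strand option stands in the command, per the file headers. STAR and Subread also appear in the submitters' processing notes, with versions not given in the sources used here. The authors' deposited table gives log2 changes and adjusted p-values. RefSeq gave symbols for 44749 IDs, and 13 more had one in the authors' deposited table.

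The genes and lists were chosen with earlier results of these data known. Counts were filtered with filterByExpr, with members that failed (Cd5) added, TMM-scaled and tested in R 4.3.3 with edgeR 4.0.16 (quasi-likelihood, two-sided, no covariate, Benjamini-Hochberg threshold 0.05 over all genes tested). Levels are TMM CPM. Ratios used a pseudocount of 0.1 CPM, and correlations log2 CPM with a prior count of 2. Both used two-sided permutation tests with 100000 resamples in numpy 2.4.6, with ranks from scipy 1.17.1. V segments with at least 3 reads were counted without a test. No set test was run. Some genes of the lists, and 1 of the 4 ratios, are not reported here. No 2 libraries of a group agreed within sampling noise (chi-square over degrees of freedom 23.3 or more in 132 pairs). The labels name no batch. The edgeR and DESeq2 scripts were tested on simulated data.

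Named genes were all members, Nr0b2, any gene passing in a list, the 3 of highest mean CPM per list, the 2 largest changes each way in the receptor and signalling lists, the 10 genes most like Cd3e and the 3 most abundant V segments. Others named (among them Trdc, Ccr7, Il7r, Pou2f1 and Ccl21a's library values) were chosen after their values were seen. The alternatives tried were DESeq2 1.42.0, RLE and upper-quartile scaling, voom with quality weights (limma 3.58.1), no filter or a mean of at least 1 CPM, B cell or adipocyte and muscle scores as covariates, other pseudocounts (0.5 CPM), prior counts (0.5) and read minimums, leaving out each library, and leaving out both KO 10 and KO 11, which was chosen after seeing the data.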

Additional observations from a re-analysis of the deposited data

How the results depend on the processing

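No paired analysis was possible because KO and WT libraries share no replicate numbers. The 50 genes called (28 higher, 22 lower in KO) became 419 with DESeq2 (205 and 214), 8 with the B cell score as covariate (8 and 0), 122 with adipocyte and muscle scores (77 and 45) and 9 without both KO 10 and KO 11 (8 and 1). Leaving out 1 library gave 9 (without WT 18) to 72 (without WT 14), with 12 without KO 10 and 15 without KO 11. It fell by more than 1.5 times, to between 9 and 32, without any 1 of KO 5, 6, 7, 10 and 11 and of WT 13, 15, 17, 18, 21, 22, 23 and 24. It was 44 to 69 with RLE or upper-quartile scaling, either other filter, or voom. The receptor genes called stayed at 0 of 9 in each of those 24 leave-one-out fits and numbered 1 in DESeq2 (Cd5, 2.11). With the B cell score the log2 changes of Cd3d, Cd3e, Cd3g, Cd247, Trac and Trbc2 were -0.096, -0.38, -0.072, -0.57, -0.22 and -0.18. With voom quality weights those of Cd3e and Cd247 were -0.049 and -0.026. Without both KO 10 and KO 11 those of Cd3d, Cd3e, Cd247, Trac and Trbc2 were -0.029, -0.30, -0.48, -0.12 and -0.12. Leaving out 1 library moved Cd3e between 0.38 and 1.06, Cd247 between 0.24 and 0.94 and Cd5 between 1.61 and 2.20. The Cd3e to Ptprc difference was -0.17 without KO 10 and KO 11 and -0.053 to 0.14 leaving out 1 library. Without the 2 libraries farthest from the median Cd3e, r changed sign for Cd5 in KO (-0.10), lymph node stroma markers in WT (-0.043) and epithelial markers in WT (0.020, and 0.0020 with a prior count of 0.5). The cause of these shifts was not tested. Low depth limits Cd5 most, with 0 to 142 reads a library.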
